A study of Rattus norvegicus with 35 samples.

Results

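The complement components and receptors described here are 10 rat genes, C1qa, C1qb, C1qc, C2, Cfb, C3, Cfi, C6, C3ar1 and C5ar1. Their probes were found by name, as those that carry these gene names on the array, which gave 13 probes of 45598 and 10 genes of 34766. The genes were listed with earlier results of these data known, so their counts beside those of all genes are descriptions only. Expression was measured with one-colour Agilent arrays in the accessory lobe of the lung of 35 female Sprague Dawley rats, 1 array per rat. The rats were either heterozygous for p53 (p53het, the groups labelled GMO) or wild type (WT), and were 12 weeks old when the instillations began. The groups were p53het Mitsui-7 (6 rats), p53het NM-403 (5 rats), p53het control (6 rats), WT Mitsui-7 (6 rats), WT NM-403 (6 rats) and WT control (6 rats). Both materials are carbon nanotubes of the multi-walled kind. They were instilled into the trachea once a week, 4 times, at 0.25 mg per rat, and the labels do not say whether that is each dose or the total. Controls received the Pluronic vehicle, and lungs were examined 3 days after exposure. The accessory lobe is 1 lobe of many cell types, so a change in the number of cells of a type and a change in RNA per cell, up or down, cannot be told apart in any value below.

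Complement is a cascade of plasma and tissue proteins that marks particles and microbes for uptake and calls in leukocytes. In the classical pathway C1q, built from the A, B and C chains, binds a target and leads to cleavage of C4 and C2. In the alternative pathway factor B joins C3b to form a convertase that amplifies C3 cleavage, and factor I, a serine protease, inactivates C3b and C4b. C6 is a subunit of the membrane attack complex. C3ar1 and C5ar1 encode the receptors for the anaphylatoxins C3a and C5a on leukocytes and other cells. The liver makes most plasma complement, while C1q is made mainly by macrophages and dendritic cells, and lung epithelium and leukocytes also make C3 and factor B.

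The level of each gene rests on its probe, a 60-base oligonucleotide. Probes are shown for C3 and Cfb, which were highest with NM-403, and for C1qa and C6, which were highest with Mitsui-7. The levels of C6 rest on the brighter of its 2 probes, which is not shown; the sequence is that of the other one, whose changes are given beside them.
C3: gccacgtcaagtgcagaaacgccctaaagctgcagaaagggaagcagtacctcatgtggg
Cfb: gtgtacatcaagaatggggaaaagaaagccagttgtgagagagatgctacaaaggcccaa
C1qa: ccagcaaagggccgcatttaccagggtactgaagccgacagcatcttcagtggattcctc
C6, dimmer probe: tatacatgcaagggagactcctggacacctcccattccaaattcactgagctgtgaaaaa
The guanine and cytosine content of these 4 probes was 55.0%, 45.0%, 55.0% and 45.0%, in the order shown. C1qa and C1qb were each spotted 10 times per array, and the SD among those spots was 0.047 and 0.036 log2 units at the median array, far below the spread between rats.

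Levels are log2 of the processed signal relative to the 75th percentile of each array, so 0 is that percentile and 1 unit is a doubling. They can be compared between groups for 1 probe, not between probes. All 10 genes were well above background on all 35 arrays. Over the arrays 66.1% to 86.4% of spots were well above background (median 71.5%), with WT Mitsui-7 replicate 5 and WT NM-403 replicate 6 at the 2 ends, and no spot was saturated. All 6 alveolar type 2 markers of the lung were detected on all 35 arrays, and 7 of 9 liver markers were above background on at most 4 arrays (Alb on 4, Cyp3a2 on 0). The other two, Ttr and Serpina1, were above background on 19 and 35 arrays, and Serpina1 fell in p53het lungs by 1.13 with Mitsui-7 (adjusted p = 0.0121) and by 1.26 with NM-403 (adjusted p = 0.0318); no liver marker was called in WT lungs. A gene was called where limma's adjusted p over 24473 genes was under 0.05. Of all genes called, 44.3% were higher in p53het Mitsui-7, 84.1% in p53het NM-403, 65.1% in WT Mitsui-7 and 72.7% in WT NM-403 against their controls. Under other scalings those shares ran from 43.6% to 52.8% for p53het Mitsui-7, 70.1% to 90.1% for p53het NM-403, 36.9% to 67% for WT Mitsui-7 and 62.1% to 77.9% for WT NM-403. The labels do not say how rats were assigned to slides; each group lay on 4 or 5 of 5 slides.

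The first question was which complement genes changed with each nanotube in each genotype. All 10 genes averaged higher with each nanotube than in the matching controls, and none was called lower in any of the 4 comparisons, where 6.49% and 0.241% of all genes were lower with Mitsui-7 and NM-403 in p53het lungs, and 4.8% and 0.858% in WT lungs. In p53het lungs 8 of 10 were called higher with Mitsui-7, against 5.16% of all genes, and 5 of 10 with NM-403, against 1.28% of all genes. In WT lungs 7 of 10 were called higher with Mitsui-7, against 8.94% of all genes, and 3 of 10 with NM-403, against 2.28% of all genes. The median change over the 10 genes was 0.75 with Mitsui-7 and 0.62 with NM-403 in p53het lungs, beside -0.03 and -0.07 over all genes. In WT lungs it was 0.78 with Mitsui-7 and 0.46 with NM-403, beside 0.04 and 0.00 over all genes. The comparisons within a genotype share their control rats, so the values are given side by side. Cfi was called in all 4 comparisons, C1qb, Cfb and C3ar1 in 3, C1qa, C1qc, C3, C6 and C5ar1 in 2, and C2 in none.

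**Figure D1:**
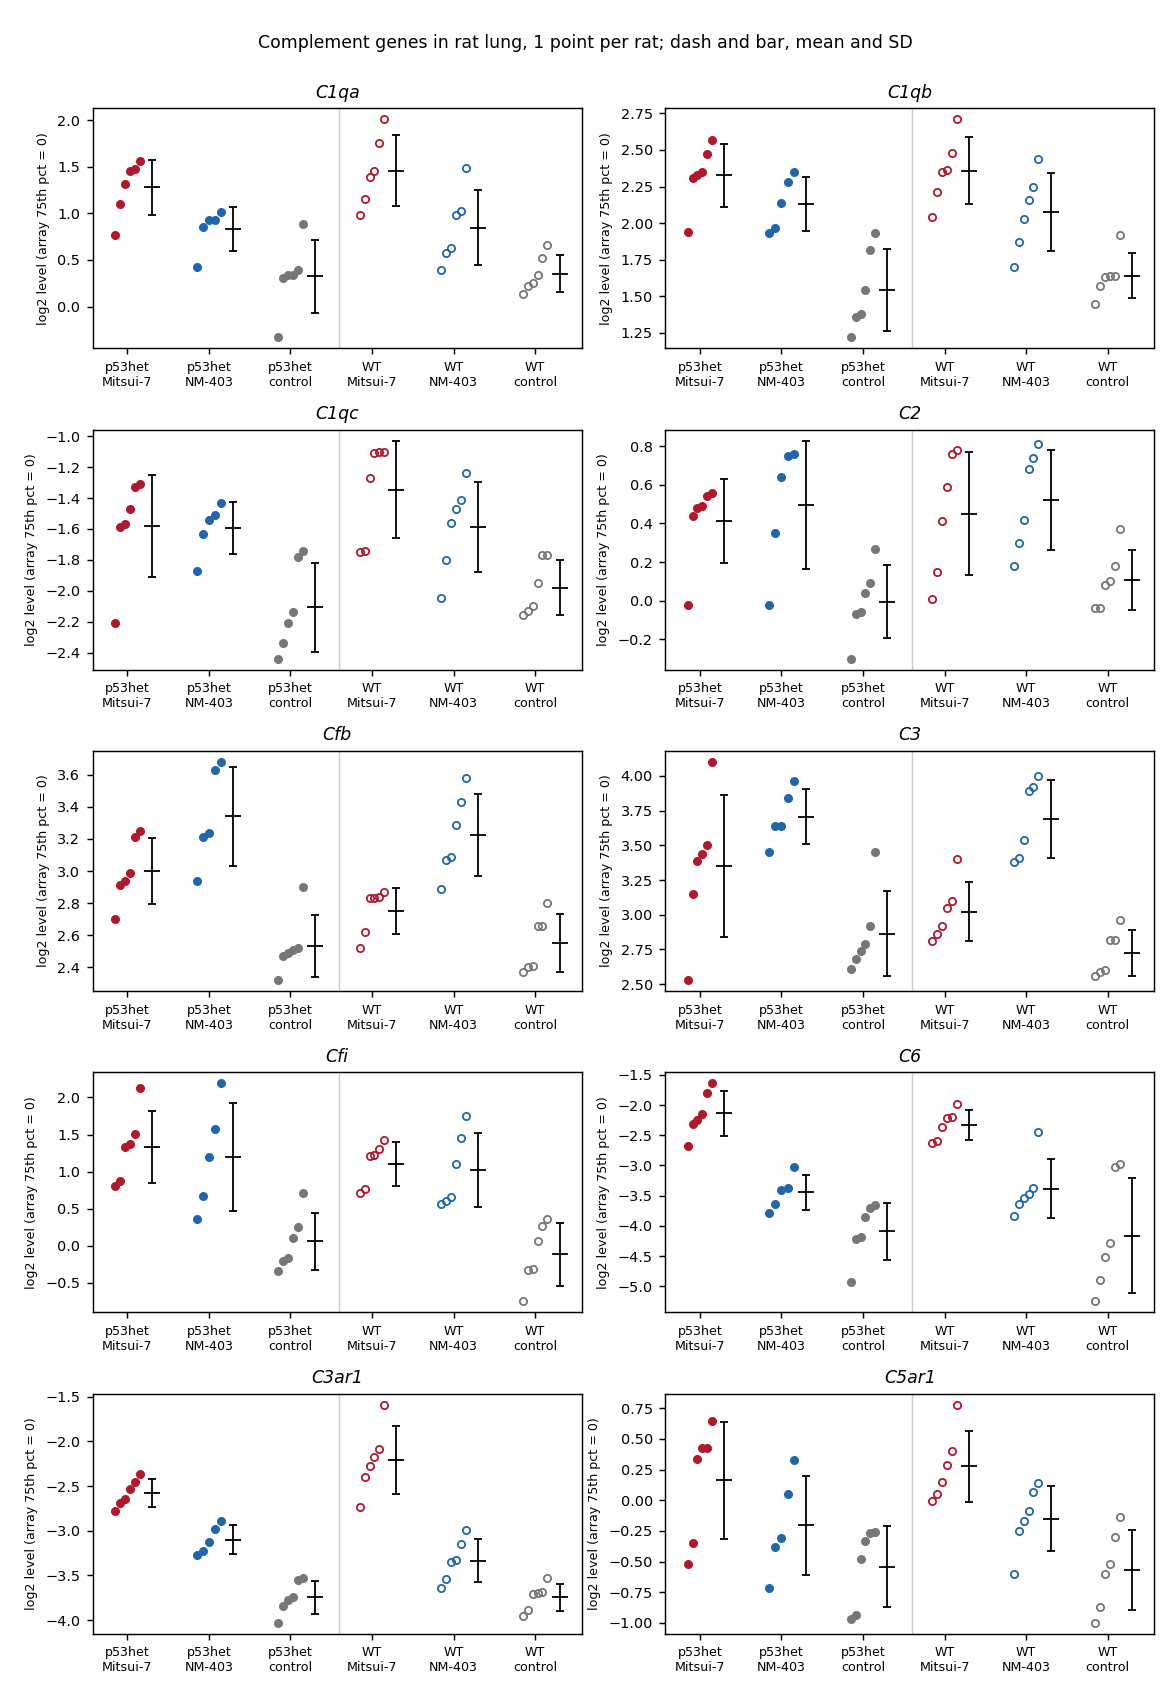
Log2 level of each gene (y axis, array 75th percentile = 0) in each rat (points, filled for p53het and open for WT, red for Mitsui-7, blue for NM-403 and grey for control) by group, with group mean and SD at the right of the points; points are spread sideways from low to high only to keep them apart. C3 and Cfb were highest in the NM-403 groups, and C6 and C3ar1 in the Mitsui-7 groups.

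C1qa, C1qb and C1qc encode the 3 chains of C1q and lie next to each other in the order C1qb, C1qc, C1qa on chromosome 5 in the RefSeq gene table of the GRCr8 assembly. In p53het lungs C1qa was at 0.77, 1.38 and 1.56 with Mitsui-7 (lowest, median, highest of 6), at 0.42, 0.85, 0.93, 0.93 and 1.02 in the 5 NM-403 rats, and at -0.33, 0.34 and 0.89 in controls. In WT lungs it was at 0.98, 1.42 and 2.01 with Mitsui-7, at 0.39, 0.80 and 1.49 with NM-403, and at 0.13, 0.29 and 0.66 in controls. Every WT Mitsui-7 rat lay above every WT control, and the other 3 exposed groups overlapped their controls. With Mitsui-7, C1qa rose 1.94-fold in p53het lungs (log2 0.96 ± 0.19, adjusted p = 0.000679) and 2.15-fold in WT lungs (1.1 ± 0.19, adjusted p = 8.06e-05). With NM-403 its changes of 0.51 ± 0.20 in p53het lungs and 0.49 ± 0.19 in WT lungs did not pass (adjusted p = 0.255 and 0.169).

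C1qb was likewise highest in the Mitsui-7 groups. It rose by 0.79 ± 0.13 with Mitsui-7 (adjusted p = 0.000105) and by 0.60 ± 0.14 with NM-403 (adjusted p = 0.018) in p53het lungs. In WT lungs it rose by 0.72 ± 0.13 with Mitsui-7 (adjusted p = 0.000233), and its change of 0.43 ± 0.13 with NM-403 did not pass (adjusted p = 0.066). For C1qb every p53het rat given either nanotube lay above every p53het control, by a narrow margin: the lowest rats were at 1.94 with Mitsui-7 and 1.93 with NM-403, and the highest control was at 1.93 to 2 decimals. C1qc rose with Mitsui-7 in p53het lungs (0.53 ± 0.16, adjusted p = 0.0245) and in WT lungs (0.63 ± 0.16, adjusted p = 0.00544). Its changes with NM-403 were 0.51 ± 0.16 in p53het lungs and 0.39 ± 0.16 in WT lungs (adjusted p = 0.129 and 0.198). The C1qc call in p53het Mitsui-7 was lost without either of 2 controls or either of 2 exposed rats (adjusted p 0.0559 to 0.0721) and from only the groups compared (0.0977), and the C1qb call in p53het NM-403 without control replicate 4 or exposed replicate 4 or 5 (0.0502 to 0.0728) and from only the groups compared (0.148). The C1qb value in WT NM-403 passed without NM-403 replicate 4 (0.51, adjusted p = 0.0299) and with slide as a fixed block (0.45, adjusted p = 0.029) or a random block (0.44, adjusted p = 0.021).

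C2, the serine protease of the classical convertase, lies next to Cfb in the same table. It averaged 0.42 ± 0.22 with Mitsui-7, 0.50 ± 0.33 with NM-403 and -0.01 ± 0.19 in controls in p53het lungs (SD, 6, 5 and 6 rats). Among WT rats C2 averaged 0.45 ± 0.32 with Mitsui-7, 0.52 ± 0.25 with NM-403 and 0.11 ± 0.15 in controls (SD, 6 rats each). Its 4 changes were close to each other, from 0.34 to 0.50, and none passed, the nearest being p53het Mitsui-7 (0.42 ± 0.14, adjusted p = 0.0536). That value passed without p53het Mitsui-7 replicate 6, the lowest rat of its group at -0.02 (0.51, adjusted p = 0.0171), and with slide as a fixed block (0.47, adjusted p = 0.011). C2 also passed in p53het NM-403 without replicate 1, likewise at -0.02 (0.63, adjusted p = 0.0173), and in WT Mitsui-7 without replicate 1 (0.43, adjusted p = 0.0434).

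C3, the central component on which all pathways converge, was highest with NM-403. In p53het lungs it was at 2.53, 3.42 and 4.10 with Mitsui-7, at 3.45, 3.64, 3.64, 3.84 and 3.96 in the 5 NM-403 rats, and at 2.61, 2.76 and 3.45 in controls. Among WT rats it was at 2.81, 2.98 and 3.40 with Mitsui-7, at 3.38, 3.71 and 4.00 with NM-403, and at 2.56, 2.71 and 2.96 in controls. The NM-403 rats of both genotypes lay above every matching control, although the lowest p53het NM-403 rat and the highest p53het control were equal to 2 decimals, and the Mitsui-7 rats overlapped the controls in both. C3 rose 1.79-fold with NM-403 in p53het lungs (0.84 ± 0.18, adjusted p = 0.00911) and 1.95-fold in WT lungs (0.96 ± 0.17, adjusted p = 0.000857). Its changes with Mitsui-7 were 0.49 ± 0.17 in p53het lungs (adjusted p = 0.063) and 0.30 ± 0.17 in WT lungs (adjusted p = 0.286). The p53het Mitsui-7 value became 0.65 without replicate 6, the rat at 2.53 (adjusted p = 0.00472), and 0.61 without control replicate 1, the rat at 3.45 (adjusted p = 0.0184). It also passed with slide as a fixed block (0.53, adjusted p = 0.0346) or a random block (0.52, adjusted p = 0.0266), with array weights (0.57, adjusted p = 0.012) and in the authors' deposited values (0.54, adjusted p = 0.032).

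Cfb, which encodes factor B of the alternative pathway, had the same order of groups as C3 over the exposed groups. In p53het lungs it was at 2.70, 2.96 and 3.25 with Mitsui-7, at 2.94, 3.21, 3.24, 3.63 and 3.68 in the 5 NM-403 rats, and at 2.32, 2.50 and 2.90 in controls. The WT levels were at 2.52, 2.83 and 2.87 with Mitsui-7, at 2.89, 3.19 and 3.58 with NM-403, and at 2.37, 2.53 and 2.80 in controls. In WT lungs the 3 groups separated only around NM-403, whose lowest rat lay above all Mitsui-7 and control rats. With NM-403, Cfb rose 1.75-fold in p53het lungs (0.81 ± 0.13, adjusted p = 0.000548) and 1.60-fold in WT lungs (0.67 ± 0.13, adjusted p = 0.00144). With Mitsui-7 it rose by 0.46 ± 0.13 in p53het lungs (adjusted p = 0.0142), and its 0.20 ± 0.13 in WT lungs did not pass (adjusted p = 0.329).

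Cfi, which encodes the inhibitor factor I, changed by nearly the same amount in all 4 exposed groups. In p53het lungs it was at 0.80, 1.35 and 2.13 with Mitsui-7, at 0.36, 0.67, 1.20, 1.58 and 2.19 in the 5 NM-403 rats, and at -0.34, -0.03 and 0.71 in controls. WT rats had levels of 0.71, 1.21 and 1.43 with Mitsui-7, of 0.56, 0.88 and 1.75 with NM-403, and of -0.75, -0.12 and 0.36 in controls. Only the p53het NM-403 rats overlapped their controls. Cfi rose 2.42-fold with Mitsui-7 (1.28 ± 0.27, adjusted p = 0.00143) and 2.21-fold with NM-403 (1.14 ± 0.28, adjusted p = 0.0272) in p53het lungs. In WT lungs it rose 2.33-fold with Mitsui-7 (1.22 ± 0.27, adjusted p = 0.00178) and 2.20-fold with NM-403 (1.14 ± 0.27, adjusted p = 0.0122). The call in p53het NM-403 was lost without any 1 of 3 controls or 3 exposed rats (0.89 to 1.14, adjusted p 0.0644 to 0.154) and from only the groups compared (0.194).

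C6, a component of the membrane attack complex, had on its brighter probe the largest change of the 10 genes with Mitsui-7 in both genotypes. In p53het lungs it was at -2.68, -2.19 and -1.64 with Mitsui-7, at -3.79, -3.63, -3.41, -3.38 and -3.02 in the 5 NM-403 rats, and at -4.93, -4.02 and -3.65 in controls. In WT rats the levels were at -2.63, -2.29 and -1.99 with Mitsui-7, at -3.83, -3.51 and -2.44 with NM-403, and at -5.25, -4.40 and -2.98 in controls. The Mitsui-7 rats lay above every matching control, and the NM-403 rats overlapped the controls. C6 rose 3.88-fold with Mitsui-7 in p53het lungs (1.96 ± 0.30, adjusted p = 2.76e-05) and 3.55-fold in WT lungs (1.83 ± 0.30, adjusted p = 4.65e-05). Its changes with NM-403 were 0.65 ± 0.31 in p53het lungs (adjusted p = 0.415) and 0.78 ± 0.30 in WT lungs (adjusted p = 0.173). The dimmer C6 probe rose by 1.27 ± 0.27 with Mitsui-7 in p53het lungs and by 1.15 ± 0.27 in WT lungs (adjusted p over all probes 0.00153 and 0.00321). With NM-403 it gave 0.00 ± 0.28 and 0.60 ± 0.27. Its 1.15 with Mitsui-7 in WT lungs was below the changes of C3ar1 (1.53) and Cfi (1.22). Under other processing settings the C6 change with Mitsui-7 ran from 1.41 to 2.07 in p53het lungs and from 1.28 to 1.84 in WT lungs, and stayed called.

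C3ar1, the C3a receptor, had the smallest p of the 10 genes with Mitsui-7. In p53het lungs it was at -2.78, -2.59 and -2.37 with Mitsui-7, at -3.27, -3.23, -3.13, -2.98 and -2.89 in the 5 NM-403 rats, and at -4.03, -3.76 and -3.53 in controls. For WT rats the values were at -2.74, -2.23 and -1.59 with Mitsui-7, at -3.64, -3.34 and -2.99 with NM-403, and at -3.95, -3.71 and -3.53 in controls. The 3 p53het groups did not overlap at all, and in WT lungs only NM-403 and control did. C3ar1 rose 2.25-fold with Mitsui-7 (1.17 ± 0.13, adjusted p = 2.23e-07) and 1.56-fold with NM-403 (0.65 ± 0.14, adjusted p = 0.00974) in p53het lungs. In WT lungs it rose 2.89-fold with Mitsui-7 (1.53 ± 0.13, adjusted p = 6.91e-10), and its 0.41 ± 0.13 with NM-403 did not pass (adjusted p = 0.0886), although it did with slide as a random block (0.0417), with array weights (0.0308) and without NM-403 replicate 3 (0.0463). The other 2 C3ar1 probes gave 1.02 and 1.14 with Mitsui-7 in p53het lungs and 1.49 each in WT lungs, all called over the 32329 probes tested. With NM-403 in p53het lungs they gave 0.56 (adjusted p = 0.472) and 0.79 (adjusted p = 0.034), and in WT lungs 0.20 (adjusted p = 0.834) and 0.59 (adjusted p = 0.0894). With normexp background correction the p53het NM-403 value of C3ar1 was 0.36 (adjusted p = 0.159).

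C5ar1, the C5a receptor, rose with Mitsui-7 in p53het lungs (0.71 ± 0.20, adjusted p = 0.0185) and in WT lungs (0.85 ± 0.20, adjusted p = 0.00379). Its levels in p53het lungs were -0.52, 0.39 and 0.65 with Mitsui-7, -0.72, -0.38, -0.31, 0.05 and 0.33 with NM-403, and -0.97, -0.40 and -0.26 in controls. In WT lungs they were -0.01, 0.22 and 0.78 with Mitsui-7, -0.60, -0.13 and 0.14 with NM-403, and -1, -0.56 and -0.14 in controls. The WT Mitsui-7 rats alone lay wholly above their controls. With NM-403 its changes were 0.34 ± 0.21 in p53het lungs and 0.42 ± 0.20 in WT lungs (adjusted p = 0.57 and 0.318). The p53het Mitsui-7 call was lost without control replicate 1 (adjusted p = 0.0503) or exposed replicate 5 (0.0639), and from only the groups compared (0.0847).

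**Figure D2:**
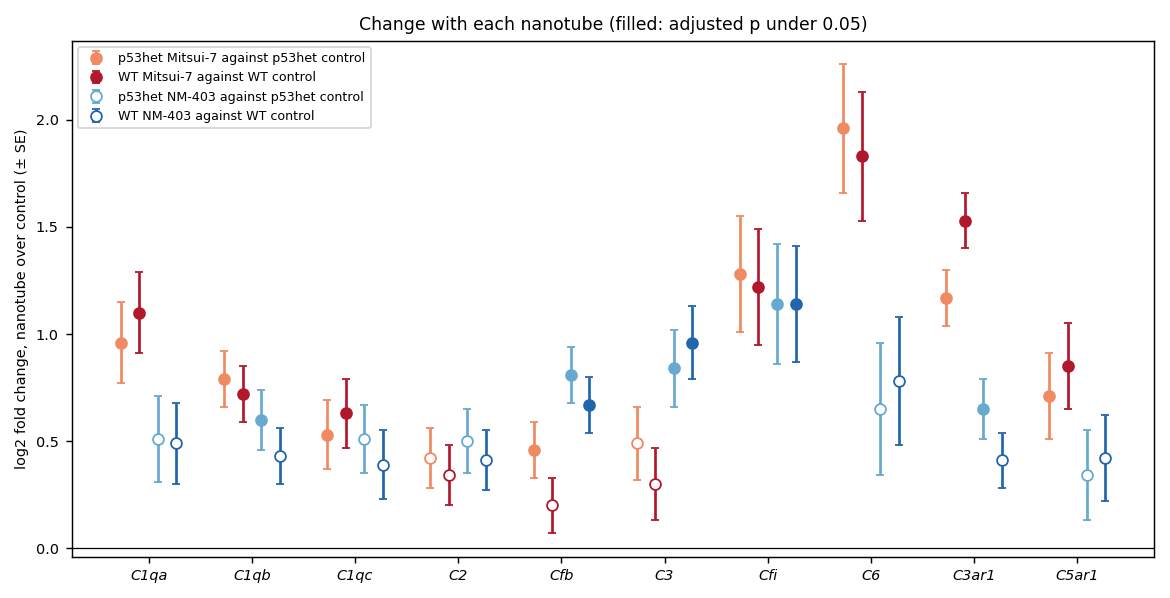
Log2 fold change of each gene with each nanotube against the matching control (y axis, points with standard error bars), by gene, in red shades for Mitsui-7 and blue shades for NM-403, the paler of each for p53het; filled points have an adjusted p under 0.05. All 40 points lie above 0, and the NM-403 points lie above the Mitsui-7 points for Cfb and C3.

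Ranges of exposed and control rats did not overlap for 4 of the 10 genes with Mitsui-7 in p53het lungs, where 2.68% of all genes lay wholly above the controls. With NM-403 in p53het lungs that held for 4 genes, against 1.21% of all genes. For WT rats it held for 7 genes with Mitsui-7, against 4.78%, and for 3 with NM-403, against 1.77%. Within slides that held both groups, 177 of the 180 differences between an exposed group and its control, 1 per gene and slide, were above 0. The exceptions were C6 in WT NM-403 (-0.59 on 1 slide) and C2 and C5ar1 in p53het NM-403 (-0.05 on 1 slide each). The genes are correlated and the nanotubes share control rats, so these are not 180 separate observations. The share above 0 over all genes was not counted. When the 6 groups were ordered by mean level for each gene, the ranges of neighbouring groups overlapped in 49 of 50 steps. The exception was C3ar1 between p53het Mitsui-7 and p53het NM-403.

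The nanotubes were next set against each other at the same nominal dose. In p53het lungs 1 gene, C6, was called higher with Mitsui-7 than with NM-403, where 1.04% of all genes were, and none was called lower, where 0.315% were. In WT lungs C6 and C3ar1 were called higher with Mitsui-7, where 3% of all genes were, and C3 and Cfb lower, where 0.474% of all genes were. The median difference over the 10 genes was 0.16 in p53het and 0.26 in WT lungs, beside 0.02 and 0.03 over all genes. Of all genes called in WT lungs 86.4% were higher with Mitsui-7, and 62.9% to 82.6% under other scalings.

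C3ar1 was 2.17-fold higher with Mitsui-7 than with NM-403 in WT lungs (1.12 ± 0.13, adjusted p = 1.37e-06), with no overlap between the 6 rats of each group, where 2.08% of all genes lay wholly above. In p53het lungs the difference was 0.52 ± 0.14 (adjusted p = 0.056), again with no overlap, and this value passed with normexp correction, a stricter filter, slide as a random block or array weights (adjusted p 0.0287 to 0.0484) and without Mitsui-7 replicate 3 (0.0413). The other 2 C3ar1 probes differed by 0.45 and 0.35 in p53het lungs (adjusted p over all probes 0.554 and 0.492). In WT lungs they differed by 1.29 and 0.90 (adjusted p over all probes 0.00419 and 0.00361). C6 was 2.48-fold higher with Mitsui-7 in p53het lungs, without overlap, where 1.48% of all genes lay wholly above and 0.576% wholly below (1.31 ± 0.31, adjusted p = 0.0222), and 2.07-fold higher in WT lungs (1.05 ± 0.30, adjusted p = 0.0427). The WT call ended with quantile normalization (1.01, adjusted p = 0.0759), with median scaling (0.96, adjusted p = 0.0979), with no filter (1.05, adjusted p = 0.062) and with the replicate block (1.05, adjusted p = 0.0636). It was also lost without any of 9 of the 12 rats (adjusted p 0.067 to 0.119), and the p53het call without any of 5 rats (0.0508 to 0.0709). The dimmer C6 probe differed by 1.27 ± 0.28 in p53het lungs (adjusted p = 0.0117) and by 0.56 ± 0.27 in WT lungs (adjusted p = 0.353).

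C3 was 1.59-fold lower with Mitsui-7 than with NM-403 in WT lungs (-0.67 ± 0.17, adjusted p = 0.0228), and Cfb was 1.39-fold lower (-0.47 ± 0.13, adjusted p = 0.0293), without overlap, where 0.413% of all genes lay wholly below. In p53het lungs the differences were -0.35 ± 0.18 for C3 (95% interval -0.73 to 0.02, adjusted p = 0.424) and -0.34 ± 0.13 for Cfb (-0.61 to -0.07, adjusted p = 0.277). These WT calls were close to the threshold. Without the 2 arrays at the ends of the detection range, C3 was at -0.57 (adjusted p = 0.141) and Cfb at -0.45 (adjusted p = 0.106). Without 1 rat at a time, C3 missed the threshold for Mitsui-7 replicates 5 and 6 and NM-403 replicates 2, 3 and 6 (adjusted p 0.0563 to 0.0646). Cfb missed it for Mitsui-7 replicates 1 and 3 and NM-403 replicates 2, 3 and 6 (0.0589 to 0.0949), with the replicate block (0.0506) and from only the groups compared (0.0805).

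The other 6 genes were not called between the nanotubes in either genotype. For C1qa the difference was 0.45 in p53het lungs (95% interval 0.05 to 0.85) and 0.61 in WT lungs (0.23 to 0.99, adjusted p = 0.0678). The WT value of C1qa passed without NM-403 replicate 6 (0.74, adjusted p = 0.0178) or Mitsui-7 replicate 1 (0.71, adjusted p = 0.0316). For Cfi it was 0.14 in p53het lungs (-0.44 to 0.71) and 0.08 in WT lungs (-0.47 to 0.63). The intervals of C2 ran from -0.39 to 0.23 in p53het lungs and from -0.37 to 0.22 in WT lungs.

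**Figure D3:**
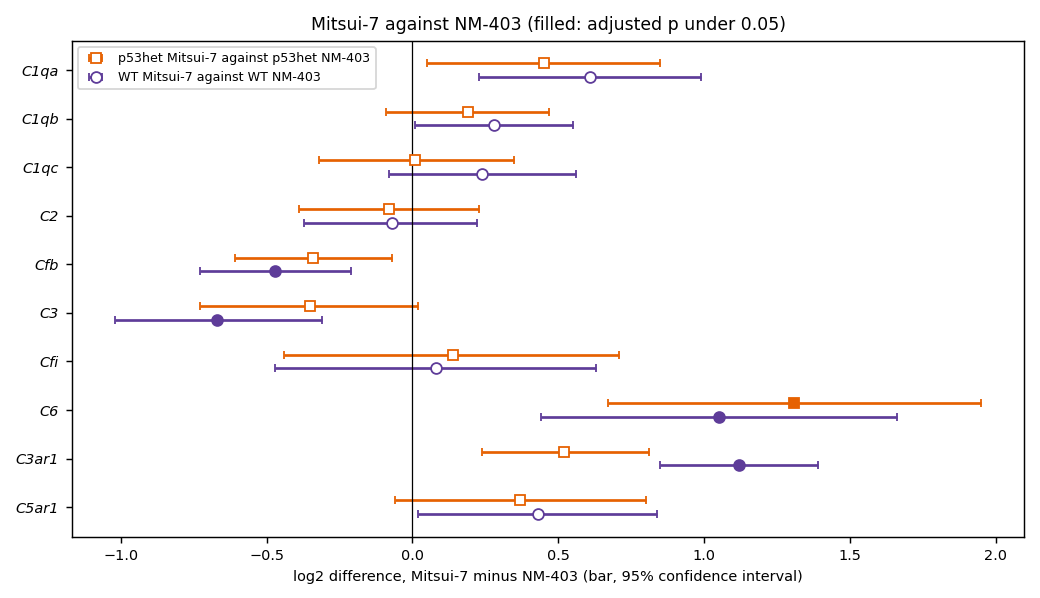
Log2 difference between Mitsui-7 and NM-403 (x axis, positive where higher with Mitsui-7) for each gene, in p53het (squares) and WT lungs (circles), with 95% confidence intervals; filled points have an adjusted p under 0.05. C6 and C3ar1 lie to the right of 0 in both genotypes, Cfb and C3 to the left.

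The next question was whether these genes differed between p53het and WT rats. No member was called between p53het and WT rats given vehicle or NM-403, where no gene of 24473 was called (0% of genes), and none with Mitsui-7, where 2 genes were (0.00817%). By unadjusted p under 0.05, 0 of the 10 genes differed with vehicle, 1 with Mitsui-7 and 0 with NM-403. That 1 gene was C3ar1, lower in p53het Mitsui-7 than in WT Mitsui-7 lungs (-0.36 ± 0.13, unadjusted p = 0.0105, adjusted p = 0.608). Over the 10 genes the p53het minus WT differences ran from -0.13 to 0.17 with vehicle, from -0.36 to 0.33 with Mitsui-7 and from -0.06 to 0.23 with NM-403. In the tests of whether the response to a nanotube itself differed by genotype, no member passed for Mitsui-7 (lowest adjusted p = 1) or NM-403 (0.985), and none had an unadjusted p under 0.05. The widest of those intervals were for C6, from -0.73 to 0.99 with Mitsui-7 and from -1.01 to 0.75 with NM-403.

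Correlations between the 10 genes are given as a description over 35 arrays, which share groups, slides and scaling, and again after the group means were removed. C1qa and C1qb had r = 0.93 (0.84 after group means were removed), C1qb and C1qc 0.91 (0.87) and C1qa and C1qc 0.83 (0.71). Cfb had r = 0.89 with C3 (0.68 within groups) and 0.78 with Cfi (0.77 within groups). C3ar1 had r = 0.88 with C1qa (0.60 within groups) and 0.84 with C1qb (0.58 within groups), and C1qc had r = 0.81 with C2 (0.72 within groups). Cfb and C5ar1 had r = 0.09, and -0.40 within groups. Cfb and its neighbour C2 had r = 0.74, and 0.64 within groups.

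**Figure D4:**
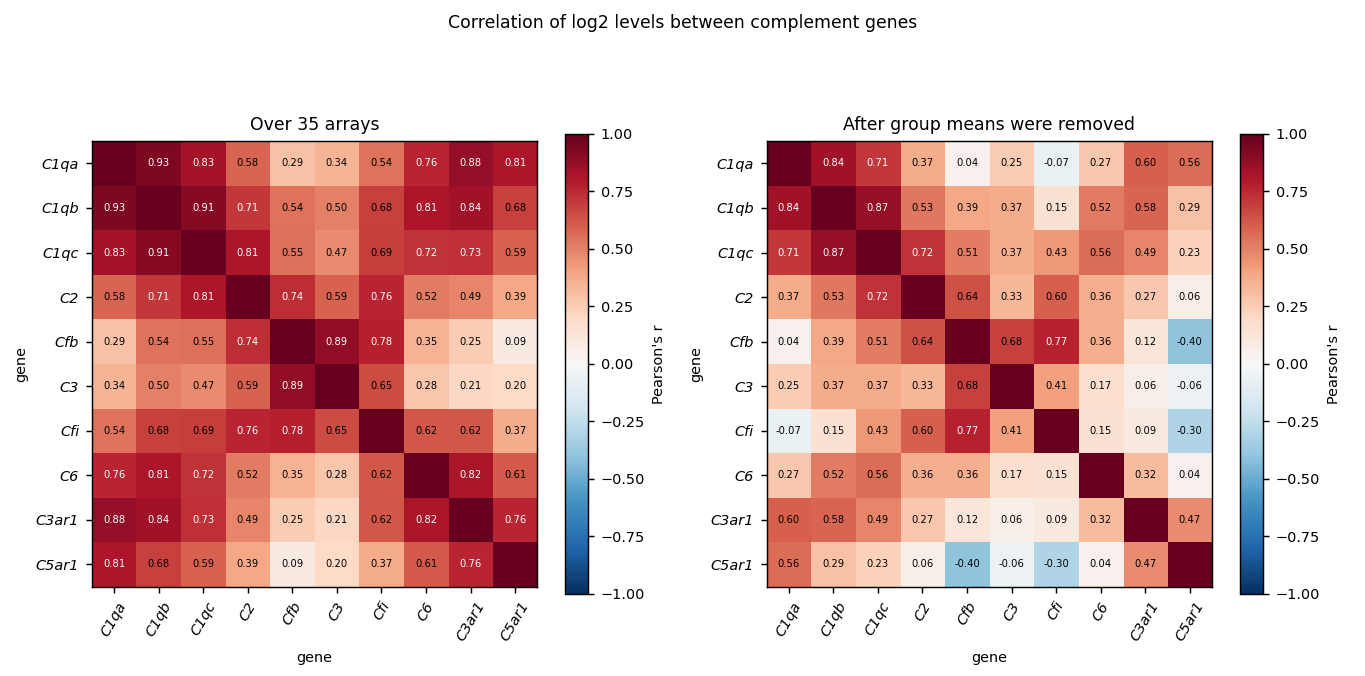
Pearson's r of log2 levels between each pair of the 10 genes (both axes) over 35 arrays (left) and after each group's mean was removed (right). In the left panel r runs from 0.83 to 0.93 among the C1q chains and from 0.59 to 0.89 among C2, Cfb, C3 and Cfi; in the right panel it runs from 0.71 to 0.87 and from 0.33 to 0.77.

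Among all other genes with a symbol, those whose levels were most like C3 over the 35 arrays were Slc16a6 (r = 0.905, 0.778 within groups), Cd177, a neutrophil surface protein (0.879, 0.694), and Lcn2, which encodes a siderophore-binding protein of neutrophils and epithelium (0.87, 0.672). Cfb was most like Lcn2 (0.925, 0.849), Entpd3 (0.923, 0.855) and Slc16a6 (0.918, 0.837). C1qa was most like Rimkla (0.932, 0.808), Folr2, a folate receptor of macrophages (0.92, 0.862), and Lilrb4 (0.912, 0.745), while C1qb was most like Rimkla (0.899), Slc16a3 (0.889) and Emp3 (0.877). C1qc was most like RT1-DMa, a class II antigen-processing gene (0.861), Ncf4 (0.857) and Incenp (0.856). C3ar1 was most like P2ry6 (0.958, 0.68), LOC103691468 (0.957, 0.754) and Slamf9 (0.956, 0.675). C5ar1 was most like Snx8 (0.915), Cd63 (0.913) and Cd53 (0.91). For C6 the nearest were Aqp3 (0.901, 0.582), Steap3 (0.888, 0.69) and Fabp4, a fatty acid binding protein of alveolar macrophages (0.888, 0.561). Cfi was nearest to Sapcd2 (0.912), Igsf8 (0.911) and Trem2, a receptor of macrophages (0.905). C2 was nearest to Cyba, a subunit of the phagocyte oxidase (0.837), Incenp (0.828) and Dbi (0.827).

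Of 38 further complement genes, 34 were tested. In p53het lungs 9 were called higher and 2 lower with Mitsui-7 and 3 higher and none lower with NM-403 (medians 0.14 and 0.03), beside 5.16% higher and 6.49% lower, and 1.28% and 0.241%, over all genes. In WT lungs 8 were called higher and 2 lower with Mitsui-7 and 4 higher and none lower with NM-403 (medians 0.18 and 0.04), beside 8.94% and 4.8%, and 2.28% and 0.858%, over all genes. The probes of C4a and C4b read near-identical copies, so the call of C4b among those in p53het Mitsui-7 is uncertain.

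The terminal component C9 rose in all 4 comparisons, by 1.62 ± 0.17 with Mitsui-7 and 1.22 ± 0.18 with NM-403 in p53het lungs and by 1.41 ± 0.17 and 0.90 ± 0.17 in WT lungs. The chains of C4b-binding protein, a cofactor of factor I, had their largest changes with NM-403. C4bpa rose by 0.73 ± 0.18 with Mitsui-7 and 0.90 ± 0.19 with NM-403 in p53het lungs; in WT lungs it rose by 1.25 ± 0.18 with NM-403 (adjusted p = 7.03e-05), and its 0.43 ± 0.18 with Mitsui-7 did not pass (adjusted p = 0.126). C4bpb rose with NM-403 by 1.12 ± 0.24 in p53het lungs and by 1.08 ± 0.23 in WT lungs; with Mitsui-7 its 0.56 ± 0.23 and 0.12 ± 0.23 did not pass. In WT lungs both were lower with Mitsui-7 than with NM-403 (C4bpa -0.82 ± 0.18, adjusted p = 0.00633; C4bpb -0.96 ± 0.23, adjusted p = 0.0103). In p53het lungs the differences of -0.17 ± 0.19 and -0.55 ± 0.24 did not pass (adjusted p = 0.735 and 0.331).

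Itgam, the alpha chain of complement receptor 3 on macrophages and neutrophils, rose by 2.07 ± 0.22 with Mitsui-7 in p53het lungs and by 2.37 ± 0.22 in WT lungs. With NM-403 it rose by 1.04 ± 0.22 in WT lungs (adjusted p = 0.00476), and in p53het lungs its 0.84 ± 0.23 missed the threshold (adjusted p = 0.0561). Its partner Itgb2 rose with Mitsui-7 by 0.59 ± 0.14 in p53het lungs and 0.81 ± 0.14 in WT lungs, and Itgax by 1.06 ± 0.23 in WT lungs. Serping1, the inhibitor of C1r and C1s, rose with Mitsui-7 by 0.81 ± 0.21 in p53het lungs and 1.23 ± 0.21 in WT lungs. Mbl1, a mannose-binding lectin, rose with Mitsui-7 in p53het lungs (0.90 ± 0.25, adjusted p = 0.0137). Vtn, which encodes vitronectin, fell with Mitsui-7 by 0.76 in p53het lungs (SE 0.17) and by 0.85 in WT lungs (SE 0.17).

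Markers of leukocytes moved with these groups. Over all genes 1.28% were called higher with NM-403 in p53het lungs and 2.28% in WT lungs. With Mitsui-7, 5.16% were called higher and 6.49% lower in p53het lungs, and 8.94% and 4.8% in WT lungs. Of 8 neutrophil markers, 2 rose with NM-403 in p53het lungs and 4 in WT lungs, led by S100a9 (1.60 ± 0.32 and 2.07 ± 0.31) and Il1r2 (1.74 ± 0.29 and 2.15 ± 0.28), and with Mitsui-7 none rose and 1 fell in each genotype. Their summed level, on a linear scale where the 75th percentile of the array is 1, ran from 2.65 to 7.31 with Mitsui-7, 9.59 to 19.9 with NM-403 and 3.68 to 7.22 in controls in p53het lungs. Among WT rats this sum ran from 1.76 to 4.36 with Mitsui-7, 9.16 to 24.2 with NM-403 and 2.83 to 8.09 in controls. The NM-403 groups thus had the highest summed neutrophil markers, without overlap with the other groups, and the highest mean C3 and Cfb. The C3 levels did overlap in p53het lungs, from 3.45 to 3.96 with NM-403 and from 2.53 to 4.10 with Mitsui-7. A link between the markers and these genes was not tested. Mmp8 and Ngp of this list were above background on only 28 and 11 of 35 arrays.

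Of 11 macrophage markers measured, 3 rose with Mitsui-7 and none with NM-403 in p53het lungs, and 6 and 2 in WT lungs. Their median change was 0.02 with Mitsui-7 and 0.42 with NM-403 in p53het lungs, and 0.57 and 0.37 in WT lungs. The leading genes were Fabp4 (3.15 ± 0.29 with Mitsui-7 in p53het and 2.54 ± 0.29 in WT lungs) and Trem2 (1.51 ± 0.30 and 2.22 ± 0.30). The summed level of the 11 markers ran from 9.39 to 16 with Mitsui-7, 6.87 to 15 with NM-403 and 5.98 to 9.64 in controls in p53het lungs, and from 8.79 to 16.4, 7.72 to 9.38 and 5.36 to 6.68 in the same groups of WT lungs. This sum is linear, so the genes with the highest levels weigh most in it. In p53het lungs its median was higher with Mitsui-7 (14.7) than with NM-403 (9.39), while the median change was higher with NM-403. Of 6 monocyte markers, 3 rose with Mitsui-7 in p53het and 4 in WT lungs, Cd14 by 0.86 ± 0.13 and 1.22 ± 0.13. With NM-403, 0 rose in p53het and 1 in WT lungs. Of 6 endothelial markers, 5 fell with Mitsui-7 in p53het and 4 in WT lungs. Of 5 cardiac muscle markers, which were above background on all 35 arrays, 4 fell with Mitsui-7 in each genotype, and of 5 mast cell markers 3 rose and 1 fell in each. Of 7 fibroblast markers, 2 rose and 1 fell with Mitsui-7 in p53het lungs, and 4 rose and 1 fell in WT lungs. None of these 4 lists had a call with NM-403. Of 6 alveolar type 1 markers 3 fell with Mitsui-7 in each genotype, and 2 in p53het and 1 in WT lungs with NM-403. Of 6 mesothelial markers 1 rose and 1 fell with Mitsui-7 and 1 fell with NM-403 in p53het lungs; in WT lungs 1 rose and 3 fell with Mitsui-7 and 4 fell with NM-403. Of 4 airway secretory markers 1 rose in each of the 4 exposures and 1 fell with Mitsui-7 in each genotype. Of 5 T cell markers measured 1 rose and 1 fell in p53het Mitsui-7 and 1 rose in WT Mitsui-7, and of 5 B cell markers 1 fell in p53het Mitsui-7. No alveolar type 2 marker was called in any exposure. Beside these counts, 5.16% of all genes were called higher and 6.49% lower with Mitsui-7 in p53het lungs, and 8.94% and 4.8% in WT lungs. With NM-403 the shares were 1.28% higher and 0.241% lower in p53het lungs, and 2.28% and 0.858% in WT lungs. The part of these cell markers in the complement values was not tested.

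**Figure D5:**
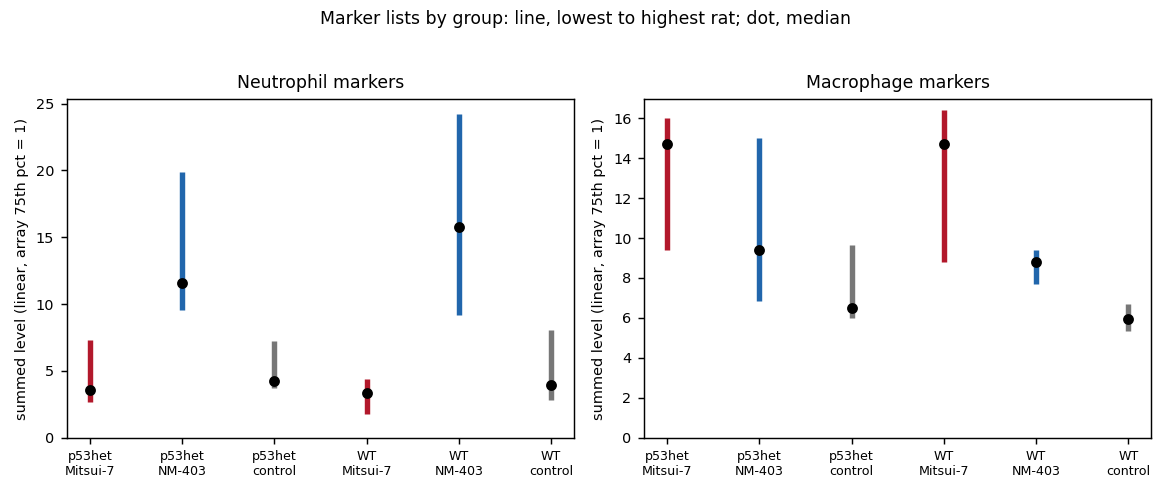
Summed linear level (y axis, array 75th percentile = 1) of 8 neutrophil markers (left) and 11 macrophage markers (right) by group; lines run from the lowest to the highest rat and dots are medians. The NM-403 groups lie above all others for neutrophil markers, and the Mitsui-7 groups have the highest median sums of macrophage markers. The median log2 change of the 11 macrophage markers in p53het lungs was 0.02 with Mitsui-7 and 0.42 with NM-403.

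Of 16 genes of nuclear factor kappa B, interferon and STAT signalling, 1 was called higher and 2 lower with Mitsui-7 and none with NM-403 in p53het lungs. In WT lungs 2 were called higher and 1 lower with Mitsui-7 and 1 higher with NM-403. Over all genes 5.16% were called higher and 6.49% lower with Mitsui-7 in p53het lungs, and 8.94% and 4.8% in WT lungs, with 2.28% higher with NM-403 in WT lungs. Irf7 rose by 1.32 ± 0.24 with Mitsui-7 in WT lungs. Irf8 rose by 0.28 ± 0.09 with Mitsui-7 in p53het lungs, by 0.90 ± 0.09 with Mitsui-7 in WT lungs and by 0.40 ± 0.09 with NM-403 in WT lungs. Rela fell with Mitsui-7 by 0.36 in p53het lungs and by 0.29 in WT lungs, and Ifngr1 by 0.25 in p53het lungs.

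Sequence before the start of the gene was taken from RefSeq's table of the GRCr8 assembly, which matched 6 of the 10 genes (C1qa, C1qb, C3, Cfi, C6 and C3ar1). The 250 bases before the start are shown for C1qa and C1qb, whose levels had r = 0.93, and for C3, which was called with NM-403 in both genotypes. All are on the minus strand and read 5′ to 3′. Capitals mark matches, on either strand, to the nuclear factor kappa B motif (GGG, any 5 bases, CC) in all 3 and to the GAS motif TTCNNNGAA in C1qa; adjoining capitals can hold overlapping matches.
C1qa, chr5:154419934-154420183: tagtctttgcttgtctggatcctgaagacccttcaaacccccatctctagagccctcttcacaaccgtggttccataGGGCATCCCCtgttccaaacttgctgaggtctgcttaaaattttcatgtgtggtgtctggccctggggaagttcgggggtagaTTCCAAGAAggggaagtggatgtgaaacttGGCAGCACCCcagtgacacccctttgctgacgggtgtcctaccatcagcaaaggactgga
C1qb, chr5:154407828-154408077: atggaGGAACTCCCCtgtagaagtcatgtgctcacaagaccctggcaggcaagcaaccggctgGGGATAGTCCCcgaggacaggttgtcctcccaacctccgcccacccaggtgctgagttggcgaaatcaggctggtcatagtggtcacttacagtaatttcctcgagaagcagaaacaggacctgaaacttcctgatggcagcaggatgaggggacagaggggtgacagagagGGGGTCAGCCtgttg
C3, chr9:2201340-2201589: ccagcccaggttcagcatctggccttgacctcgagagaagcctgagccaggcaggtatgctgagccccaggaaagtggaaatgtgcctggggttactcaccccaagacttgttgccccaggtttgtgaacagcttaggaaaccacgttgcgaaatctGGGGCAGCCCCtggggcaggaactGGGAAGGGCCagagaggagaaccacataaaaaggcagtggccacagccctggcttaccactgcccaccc
Over all 33465 promoters 42.3% held the nuclear factor kappa B motif on either strand in the same 250 bases, and so did 4 of these 6 genes (C1qa, C1qb, C3 and C3ar1). The GAS motif TTCNNNGAA was in 7.7% of all promoters and in 1 of the 6 (C1qa), and the C/EBP motif TTGNNNCAA in 4.8% and in 1 of the 6 (C6). The interferon-response core (GAAA, any 2 bases, GAAA; 3.4% of all promoters) and TATAAA (12.9%) were in none of the 6. These are matches of letters only.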

How the data were processed

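RNA from the accessory lobe of 35 rats was labelled with Cy3 and hybridised to one-colour Agilent arrays, 1 per rat, and spot intensity was extracted with Agilent Feature Extraction 12.0.1.1, per the file headers. The deposited processed intensity is background-subtracted, per the file headers. The authors' deposited table of log2 values was centred on the median of each probe as the values show, was filtered by a rule not given in the sources used here, and served as an alternative; it holds 8 of the 10 genes (C6 and C3ar1 were not analysed there).

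Control and outlier spots were left out, spots of a probe averaged, and log2 intensity set relative to the 75th percentile of each array. The brightest probe stood for each gene. Genes well above background on at least 5 arrays, with at least 3 measured values per group, were tested (24473 genes, 15722 with a symbol). limma 3.58.1 in R 4.3.3 fitted all 6 groups together, with Benjamini-Hochberg adjustment and a threshold of 0.05, and Python 3.11.15 with matplotlib 3.10.9 drew the figures. Errors of differences are standard errors. The fit was tested on simulated data without a slide effect. For each exposure 67 genes were changed 1.5-fold, 67 were changed 2-fold and 66 were changed 4-fold. Over the 4 exposures it recovered 32.8% to 44.8% of 1.5-fold changes and 64.2% to 76.1% of 2-fold changes. Recovery after adjustment depends on how many genes change, and fewer were changed there than were called in the data. The shares therefore do not measure recovery in the real comparisons. A gene that was not called may still have changed.

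The labels name separate rats, and the number of rats limits the precision. Arrays lay on 5 slides. Residuals correlated at a mean r of 0.239 between arrays of different groups on the same slide and -0.056 across slides, and at 0.03 between arrays sharing a replicate number, so the numbers were not taken as pairs.

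The genes and lists were chosen with earlier results of these data known. The named genes were the 10 genes, further complement genes called with at least 1.5-fold change in an exposure, the called signalling genes and the leading cell markers; the nearest genes were the 3 with the highest Pearson's r. Alternatives were quantile and median scaling, normexp with an offset of 50, the authors' values, 2 other filters, slide blocks, the replicate block, array weights, the mean of all probes, only the groups compared, leaving out each rat, and, chosen after seeing the data, leaving out the 2 arrays at the ends of the detection range. Motifs were searched in the 250 bases before the start of the gene. The planned window also took in the 50 bases after the start, which were left out. One check of the labels is not reported here.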

Additional observations from a re-analysis of the deposited data

Results flagged for a closer look

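In 6 of 60 combinations of gene and group, 1 rat lay far from the others of its group by Dixon's test, where chance gives about 5%. C1qa in p53het NM-403 replicate 2 was at 0.42, below the next rat at 0.85. C1qc in p53het Mitsui-7 replicate 6 was at -2.21, below the next at -1.59, and C2 in the same rat was at -0.02, below the next at 0.44. Cfb in p53het control replicate 1 was at 2.90, above the next at 2.52, and C3 in the same rat was at 3.45, above the next at 2.92. C6 in WT NM-403 replicate 6 was at -2.44, above the next at -3.38.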

How the results depend on the processing

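All 982 values of the 10 genes against controls stayed above 0 under the alternatives run. They are refits of the same differences on the same rats, many with only 1 rat left out, so they are not separate evidence. With the replicate block, the genes called were 8 in p53het Mitsui-7, 5 in p53het NM-403, 7 in WT Mitsui-7, 3 in WT NM-403, 1 between nanotubes in p53het and 2 in WT lungs, and 0 in each genotype comparison and interaction; only the WT nanotube count moved, from 4. That count was also 2 with the authors' values. WT NM-403 gave 6 with slide as a random block, and p53het NM-403 gave 3 from only the groups compared. Over all settings that kept every rat or left out the 2 arrays, counts ran from 6 to 10 in p53het Mitsui-7 and 3 to 7 in p53het NM-403. They ran from 5 to 7 in WT Mitsui-7, 3 to 6 in WT NM-403 and 2 to 5 between nanotubes in WT lungs. The p53het nanotube count was 2 with normexp, the stricter filter, slide as a random block or array weights, and 0 with the authors' values, which lack C6 and C3ar1. Without 1 rat at a time the counts ran from 6 to 10 in p53het Mitsui-7, 3 to 6 in p53het NM-403, 7 to 8 in WT Mitsui-7, 3 to 4 in WT NM-403, 0 to 2 between nanotubes in p53het lungs and 1 to 4 in WT lungs.

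Fold changes of single genes were recomputed for the exposures and the differences between nanotubes, not for the genotype comparisons; among them signs turned for differences between nanotubes near 0. With median scaling Cfi in WT lungs was 0.00 (otherwise 0.08) and C1qc in p53het lungs -0.02 (otherwise 0.01). Without 1 rat at a time, Cfi ran from -0.07 to 0.38 in p53het and -0.01 to 0.23 in WT lungs, C2 from -0.21 to 0.01 and -0.14 to 0.01, and C1qc in p53het lungs from -0.06 to 0.14. The cause was not tested.

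Over all genes, slide as a fixed block raised the calls to 5578 from 2851 in p53het Mitsui-7, 942 from 372 in p53het NM-403, 5328 from 3364 in WT Mitsui-7, 1858 from 768 in WT NM-403, and between nanotubes to 498 from 331 in p53het and 1578 from 850 in WT lungs; as a random block it gave 5173, 988, 5278, 1877, 583 and 1587. Array weights gave 5269, 2335 and 1425 in p53het Mitsui-7, p53het NM-403 and WT NM-403, and 925 between nanotubes in p53het lungs. Normexp gave 1840 and 184 in p53het Mitsui-7 and p53het NM-403 and 453 between nanotubes in WT lungs. From only the groups compared there were 1738 and 140 in those p53het groups and 517 between nanotubes in WT lungs. Without the 2 arrays at the ends of the detection range there were 457 in WT NM-403 and 556 between nanotubes in WT lungs. The authors' values, over 9803 genes, gave 1408, 163, 1744 and 491 against controls and 135 and 315 between nanotubes.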

Other observations

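Single rats tended to be extreme for several of the 10 genes at once. p53het Mitsui-7 replicate 6 was the lowest of its group for 8 genes, and p53het NM-403 replicate 1 for 6. p53het control replicate 1 was the highest of its group for 5, C1qc, C2, Cfb, C3 and Cfi. WT Mitsui-7 replicate 1 was the lowest of its group for 7 genes and replicate 4 the highest for 6. WT NM-403 replicate 6, the array with the fewest spots above background, was the highest of its group for 7 genes, and replicate 4 was the lowest for 6. WT control replicate 2 was the highest for C1qa, C1qb, C1qc, C6 and C5ar1 and the lowest for C2, Cfb, C3 and Cfi.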
